A study of Mus musculus with 6 samples.

Results

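The genes described here are 10 transcription factors of heart and pharynx development, *Nkx2-5*, *Nkx2-6*, *Tbx1*, *Tbx20*, *Gata4*, *Gata5*, *Hand1*, *Hand2*, *Mef2c* and *Isl1*, each of which had 1 locus among the 24402 loci of a whole-lung RNA-Seq table. The set was put together with the deposited values known, and *Nkx2-6* and *Tbx1* were chosen by their opposite, large differences between the genotypes. The differences of these genes are therefore given as a description, with no test. RNA came from whole lungs of C57BL/6 mouse embryos at 12.5 *dpc*, from 3 wild-type (control) libraries and 3 *Yap*-flox/flox; *Shh*-Cre/+ (*Yap* mutant) libraries of littermates. In the mutants, Cre made from the *Shh* locus deletes *Yap* in the lung epithelium, so the mesenchyme keeps the gene, and the mutants also carry 1 altered *Shh* allele that the label of the controls does not list. The table holds 1 value per genotype in FPKM (fragments per kilobase of transcript scaled to the mapped fragments of a library), as the authors summarised it over the libraries. From it, neither library depth nor the scatter among libraries can be read, so no value below has an error and no difference has a test. In whole-tissue RNA, fewer cells of a type and less RNA per cell cannot be told apart.

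These factors form much of the regulatory circuit that makes heart muscle. NKX2-5, GATA4, TBX20, HAND2, MEF2C and ISL1 act together on the genes of the contractile apparatus, with ISL1 and MEF2C prominent in the second heart field that adds cells to both ends of the early heart tube. TBX1 and NKX2-6 are better known from the pharynx, where TBX1 controls the arches and the outflow tract, and *Tbx1* has also been described in lung epithelium. Several of the factors also work elsewhere, GATA4 and GATA5 in foregut endoderm and mesothelium, HAND2 and ISL1 in autonomic neurons and MEF2C in blood vessels and skeletal muscle. In mice, heart muscle also surrounds the pulmonary veins.

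Ratios are given as the log2 of *Yap* mutant over control after 0.1 FPKM was added to both values, which understates the change of genes with low values. A locus was counted when the mean of its 2 values was at least 0.1 FPKM, and a difference of at least 2-fold on this scale (a log2 ratio of 1) is the size used for counts. Of the 10 factors, *Nkx2-6*, *Nkx2-5* and *Tbx20* were higher in *Yap* mutant lungs by at least 2-fold, as were 3.99% of all 16546 loci counted. *Tbx1* was the 1 factor lower by at least 2-fold, beside 2.18% of all loci. These 4 genes had means between 1 and 10 FPKM, and in that band 4.07% of 5412 loci were higher and 2.35% were lower by as much. The set was assembled from these same values, so nothing is read from its counts. A further 5 factors, *Gata4*, *Mef2c*, *Gata5*, *Hand2* and *Isl1*, had higher values in *Yap* mutant lungs by less than 2-fold. *Hand1* was close to 0 in both genotypes and, alone among the 10, was too low to be counted. The median log2 ratio of the 10 was 0.48, against 0.00 for all loci counted, of which 8360 were higher and 8186 were lower.

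**Figure D1:**
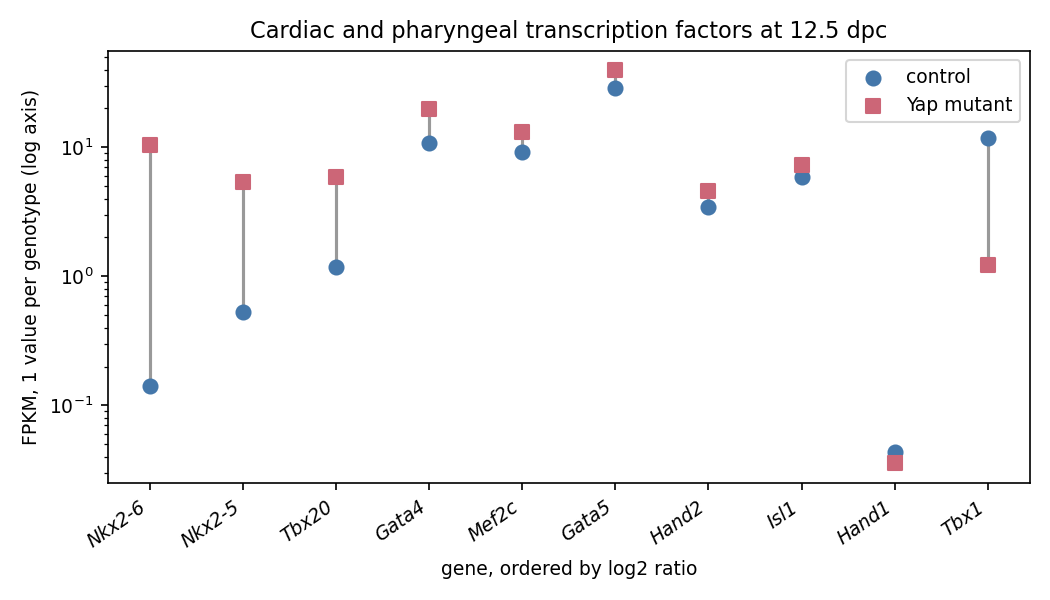
The FPKM value of each of the 10 factors in control (circles) and *Yap* mutant (squares) lungs, on a log axis, with genes ordered by log2 ratio. *Nkx2-6* goes from 0.141 to 10.4 FPKM and *Tbx1* from 11.7 to 1.23 FPKM, and the values of *Hand1* lie below 0.1 FPKM.

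Of the 10 factors, 7 had an entry in the table of RefSeq promoter sequences on GRCm38.p6, some with several start sites, giving 10 windows of the 250 bases before a start. *Nkx2-6*, *Gata4* and *Hand1* had none. The windows of the 3 such genes that differed by at least 2-fold are printed from 5′ to 3′ on the strand of the gene, together with that of *Mef2c*, the 1 window of the 10 that holds the letters of the TEAD motif, through which YAP reaches DNA. For *Nkx2-5*, the 43 bases next to the start were left out because a longer GENCODE transcript has an exon there. The *Nkx2-5* locus in the deposited table reaches further 5′, to 26844881, so the printed stretch lies inside that locus. For *Tbx1*, the window of the start nearer to the coding sequence is shown, since the locus in the deposited table ends beside that start. Capitals mark the TEAD letters in *Mef2c*.
Nkx2-5, chr17:26841609-26841815, minus strand: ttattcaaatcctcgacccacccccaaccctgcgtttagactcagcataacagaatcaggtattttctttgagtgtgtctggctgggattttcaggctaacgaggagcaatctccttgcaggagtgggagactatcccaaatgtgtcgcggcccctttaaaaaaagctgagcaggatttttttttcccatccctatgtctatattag
Tbx20, chr9:24774304-24774553, minus strand: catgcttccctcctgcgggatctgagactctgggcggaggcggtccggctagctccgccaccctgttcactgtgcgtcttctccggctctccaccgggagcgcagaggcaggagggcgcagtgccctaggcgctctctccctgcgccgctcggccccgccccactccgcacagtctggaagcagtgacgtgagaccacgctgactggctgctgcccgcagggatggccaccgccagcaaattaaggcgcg
Tbx1, chr16:18588900-18589149, minus strand: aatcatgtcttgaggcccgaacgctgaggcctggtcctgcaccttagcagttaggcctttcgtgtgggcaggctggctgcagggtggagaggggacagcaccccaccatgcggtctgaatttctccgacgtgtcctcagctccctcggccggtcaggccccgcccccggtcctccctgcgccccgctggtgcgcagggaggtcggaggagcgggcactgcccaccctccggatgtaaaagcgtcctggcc
Mef2c, chr13:83503784-83504033, plus strand: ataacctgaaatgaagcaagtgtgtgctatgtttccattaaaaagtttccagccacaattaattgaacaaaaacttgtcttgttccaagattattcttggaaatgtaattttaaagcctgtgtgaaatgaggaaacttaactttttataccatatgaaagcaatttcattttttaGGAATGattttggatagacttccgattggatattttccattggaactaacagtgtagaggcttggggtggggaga

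Motifs were searched as letters on both strands. GGAATG (TEAD) was found in 1 of the 10 windows, 75 to 70 bases before the *Mef2c* start, and in 12.6% of all 32851 windows of this length. For the zinc finger factors of the GATA family, the letters AGATAA were searched along with a variant of the same length, TGATAA. Either form was found in 2 windows, those of *Hand2*, which had 2 matches, and *Isl1*, and in 16.6% of all windows. GGTGTG (part of the T-box motif) was found in 1 window, that of a second *Mef2c* start, and in 16.3% of all windows. TNAAGTG (NK2 factors) was found in 0 of the 10 and in 10.1% of all windows. No match of one motif overlapped a match of another. *Nkx2-5*, *Tbx20* and *Tbx1*, the printed genes with differences of at least 2-fold, held none of these letters in their windows, which says only that the letters are not in this stretch. GC content was 67.2% in the printed *Tbx1* window, 68.8% in that of *Tbx20*, 49.2% in the whole *Nkx2-5* window and 33.6% in the printed *Mef2c* window, against a median of 52.4% over all windows.

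*Nkx2-6* encodes an NK2 homeodomain factor closely related to NKX2-5 and is known from the pharyngeal endoderm and the early heart. It lies on chromosome 14 of GRCm38, where its locus in the deposited table runs from 69164799 to 69176140, wider than the GENCODE gene, which runs from 69171802 to 69175518 on the plus strand. Its value was 0.141 FPKM in the control lungs and 10.4 FPKM in the *Yap* mutants. It was thus barely measured in the controls, and in the mutants it was the fourth by level among the 10 factors. The log2 ratio was 5.44 with the 0.1 FPKM added, 6.20 without it and 3.32 with 1 FPKM added, and it ranked 14 from the top among the 16546 loci. The transcript *1700092C10Rik* lies at the same locus on the opposite strand, and was listed at 0 in control and at 0.239 FPKM in *Yap* mutant lungs. The libraries were made strand-specific, but the strand setting used for the values is not given in the sources used here, so reads of such partners may not have been told apart.

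*Nkx2-5*, an early and lasting regulator of heart muscle identity, lies on chromosome 17 from 26838665 to 26844881. Its value was 0.526 FPKM in the control lungs and 5.41 FPKM in the *Yap* mutants, a log2 ratio of 3.14, or 2.07 with 1 FPKM added. *Tbx20*, a T-box factor of heart muscle and endocardium, lies on chromosome 9 from 24720812 to 24774303. Its value was 1.18 FPKM in the control lungs and 5.92 FPKM in the *Yap* mutants, a log2 ratio of 2.24. The pair was low in the controls and came to about the same level in the mutants. Among all loci counted, *Nkx2-5* ranked 53 and *Tbx20* ranked 150 from the top.

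*Tbx1*, which in humans lies in the region deleted in DiGeorge syndrome, is on chromosome 16 from 18580983 to 18588906 in the deposited table. The GENCODE gene reaches further, to 18590671 at its 5′ end, so the locus does not cover the farther start. Its value was 11.7 FPKM in the control lungs and 1.23 FPKM in the *Yap* mutants. In the controls it was the second highest of the 10 factors, and in the mutants the ninth. The log2 ratio was -3.15, and *Tbx1* ranked 17 from the bottom among the 16546 loci counted.

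*Gata4* and *Gata5* encode zinc finger factors, GATA4 being needed for heart muscle and for mesothelium and GATA5 being found in endocardium and foregut endoderm. *Gata4*, on chromosome 14 from 63198915 to 63272005, had 10.8 FPKM in the control lungs and 19.97 FPKM in the *Yap* mutants, a log2 ratio of 0.88, just under the 2-fold mark. *Gata5*, on chromosome 2 from 180320879 to 180340732, had 28.8 FPKM in the control lungs and 39.4 FPKM in the *Yap* mutants, a log2 ratio of 0.45. *Gata5* was the highest of the 10 factors in both genotypes. Its locus overlaps an antisense transcript, named *Gm14318* in the deposited table, with 0.568 FPKM in the control lungs and 0.850 FPKM in the *Yap* mutants.

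*Mef2c*, a MADS-box factor of heart, skeletal and vascular muscle, lies on chromosome 13 from 83504034 to 83667079. Its value was 9.17 FPKM in the control lungs and 13.1 FPKM in the *Yap* mutants, a log2 ratio of 0.51. *Isl1*, a LIM homeodomain factor of the second heart field and of neurons, lies on chromosome 13 from 116298270 to 116309692. Its value was 5.93 FPKM in the control lungs and 7.27 FPKM in the *Yap* mutants, a log2 ratio of 0.29, the smallest of the higher values among the 10.

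*Hand1* and *Hand2* encode basic helix-loop-helix factors of the heart and the autonomic nervous system. *Hand2*, on chromosome 8 from 57320983 to 57324517, had 3.43 FPKM in the control lungs and 4.55 FPKM in the *Yap* mutants, a log2 ratio of 0.40. Its locus overlaps the antisense transcript *Hand2os1*, and the unnamed locus that begins 0.194 kb away and also lies in *Hand2os1* had 3.96 and 5.32 FPKM, a log2 ratio of 0.42. *Hand1*, on chromosome 11 from 57828713 to 57832147, had 0.0432 FPKM in the control lungs and 0.0355 FPKM in the *Yap* mutants. The levels of the HAND genes thus stood far apart, with *Hand1* last among the 10 in both genotypes.

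By level in the controls the order was *Gata5*, *Tbx1*, *Gata4*, *Mef2c*, *Isl1*, *Hand2*, *Tbx20*, *Nkx2-5*, *Nkx2-6* and *Hand1*. In *Yap* mutant lungs it was *Gata5*, *Gata4*, *Mef2c*, *Nkx2-6*, *Isl1*, *Tbx20*, *Nkx2-5*, *Hand2*, *Tbx1* and *Hand1*. With no spread given, it cannot be said which neighbours in either order differ. At least 1 FPKM was listed for 7 of the 10 factors in the controls and for 9 in the mutants, and their sum was 71.7 FPKM and 107.2 FPKM. The order of the differences on the linear scale was not that of the ratios. The difference, mutant minus control, was 10.6 FPKM for *Gata5*, 10.2 FPKM for *Nkx2-6* and 9.18 FPKM for *Gata4*. For *Nkx2-5* it was 4.89 FPKM, for *Tbx20* 4.74 FPKM and for *Mef2c* 3.91 FPKM. Thus *Gata4* and *Gata5*, with ratios under 2-fold, differed by more FPKM than *Nkx2-5* and *Tbx20*, while *Tbx1* differed by -10.5 FPKM.

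**Figure D2:**
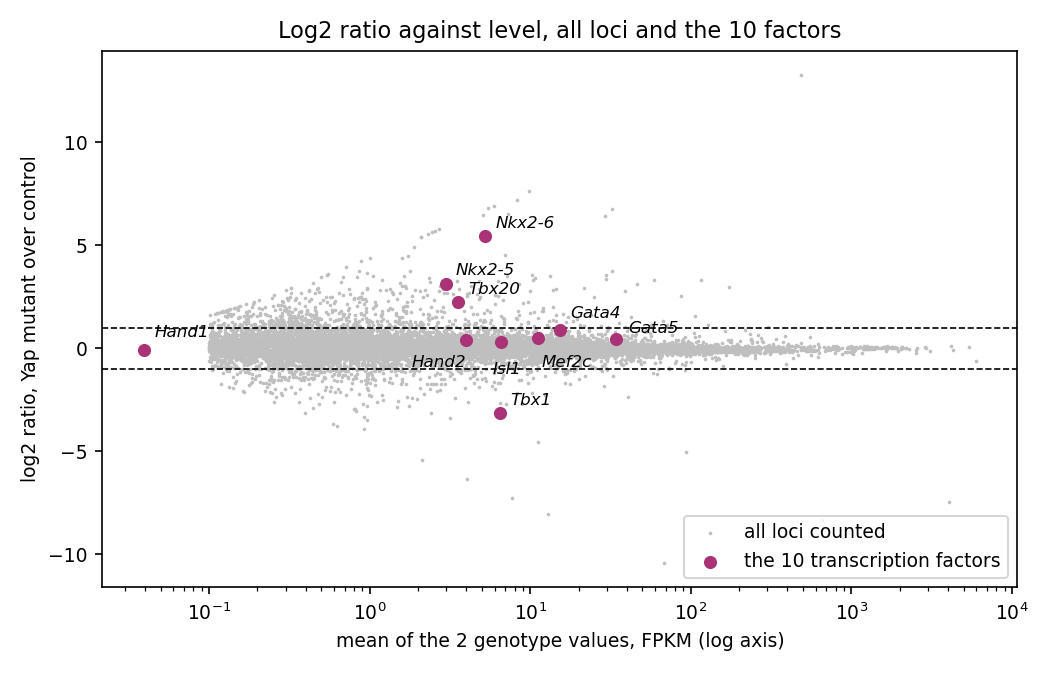
Log2 ratio of *Yap* mutant over control (vertical axis) against the mean of the 2 genotype values in FPKM (horizontal log axis) for the 16546 loci counted (grey) and the 10 factors (large points), with dashed lines at 2-fold. *Nkx2-6*, *Nkx2-5* and *Tbx20* lie above the upper line, *Tbx1* lies below the lower one, and *Hand1* lies left of the loci counted.

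For *Nkx2-6* and *Tbx1*, the loci with the nearest log2 ratio were taken from those whose mean was within 2-fold of the gene's own, a likeness that rests on 2 values. Of 3849 loci at the level of *Nkx2-6*, 7 had as high a ratio. The nearest in either direction were an unnamed locus on the X chromosome, listed at 0 in control and at 5.41 FPKM in *Yap* mutant lungs, *Ttr*, which encodes the carrier transthyretin, with 0.492 and 13.5 FPKM, and the Y-linked *Ddx3y*, with 0.0163 and 10.2 FPKM. The ratio of *Ttr* was lower than that of *Nkx2-6*. Of 4190 loci at the level of *Tbx1*, 4 had as low a ratio. The nearest in either direction were all less low than *Tbx1*. They were *Fam162b*, with a log2 ratio of -2.73, *Shh*, the Hedgehog ligand of the lung epithelium, with -2.71, and *Hhip*, a Hedgehog-binding inhibitor and target of the pathway, with -2.67. *Shh* is also the locus that carries the Cre allele of the mutants.

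The loci next to each factor on the chromosome were examined to see whether a difference was shared with the surroundings. Of the 60 loci that were the 3 nearest on either side, 51 were counted, and 8 were higher and 1 was lower by at least 2-fold. Around *Nkx2-6*, beyond the antisense transcript at its own locus, *Stc1*, which encodes a secreted glycoprotein, had a log2 ratio of 0.36. Next to *Nkx2-5*, an unnamed locus 3.51 kb away had 0.0128 and 0.258 FPKM, and a second one 8.26 kb away was listed at 0 in control and at 0.379 FPKM in *Yap* mutant lungs. On the far side of *Nkx2-5*, *Kifc5b* had a log2 ratio of -0.13. The 2 loci nearest to *Nkx2-5* on 1 side were thus measured almost only in the mutants, at low values, and the nearest on the other side hardly differed.

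Around *Tbx1*, none of the 6 loci differed by 2-fold. *Gnb1l* had a log2 ratio of -0.40 and the joint locus of *Gp1bb* and *Sept5* one of -0.50, against -3.15 for *Tbx1* itself. Next to *Tbx20*, *Herpud2* had a log2 ratio of -0.15, and *Dpy19l2*, with at most 0.0692 FPKM, was too low to be counted. For *Gata4*, the nearest loci were *Neil2*, with a log2 ratio of 0.66, and *Blk*, too low to be counted. For *Gata5*, the antisense *Gm14318* had a log2 ratio of 0.51, and an unnamed locus 0.852 kb away had one of 0.90. The nearest loci of *Hand1*, *Sap30l* and *Larp1*, had log2 ratios of -0.10 and 0.04. Beyond *Hand2*, an unnamed locus 7.21 kb away had a log2 ratio of 0.54. *Mef2c* lies between *Cetn3*, with a log2 ratio of -0.03, and *C130071C03Rik*, listed at 0 in both genotypes, and *Isl1* lies between *Pelo*, with -0.09, and *Parp8*, with 0.25. The 1 neighbour lower by at least 2-fold was *Adamdec1*, the third locus on 1 side of *Nkx2-6*, with a log2 ratio of -2.60.

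**Figure D3:**
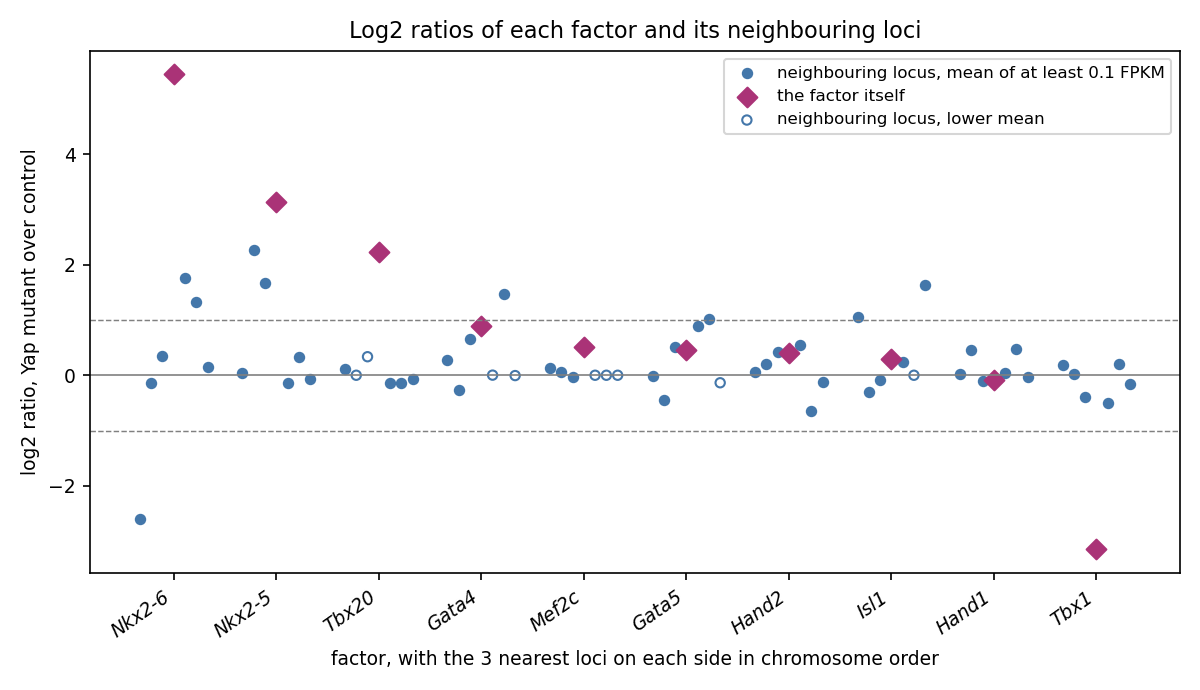
Log2 ratio of *Yap* mutant over control (vertical axis) for each factor (diamonds) and the 3 nearest loci on each side in chromosome order (circles, open where the mean was under 0.1 FPKM), with dashed lines at 2-fold. *Tbx1* lies at -3.15 while its 6 neighbours lie between the dashed lines.

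The families to which the factors belong were described from lists of their other members. Of 5 other NK2 genes, only *Nkx2-1*, the lineage factor of lung and thyroid, reached 0.1 FPKM on average, with 61.9 FPKM in the control lungs and 35.9 FPKM in the *Yap* mutants, a log2 ratio of -0.78. *Nkx2-5* and *Nkx2-6* thus differed in the opposite direction from the NK2 gene of the lung epithelium. Of 15 other T-box genes, 8 were counted and all 8 were higher in the mutants, 1 of them by at least 2-fold, with a median log2 ratio of 0.29. *Tbx18*, of the epicardium and the venous pole of the heart, went furthest, from 2.65 to 6.36 FPKM, a log2 ratio of 1.23. The T-box genes of the lung mesenchyme were the highest in level and differed little, with log2 ratios of 0.06 for *Tbx2*, 0.51 for *Tbx3*, 0.12 for *Tbx4* and 0.30 for *Tbx5*. *Mga*, a large T-box protein gene, had 0.27. *Tbx1* was thus lower in the mutants while the T-box genes counted beside it were higher.

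All 4 other GATA genes were counted, 3 were higher and 1 was lower, and none of the 4 differed by 2-fold, with a median log2 ratio of 0.62, or 0.33 with 1 FPKM added. *Gata6*, which acts in lung epithelium and heart, had 35.04 FPKM in the control lungs and 56.0 FPKM in the *Yap* mutants, a log2 ratio of 0.67. *Gata3*, of neurons and lymphoid cells, had a log2 ratio of 0.56, and *Gata2*, of blood and endothelium, had -0.09. *Gata4*, *Gata5* and *Gata6* were all higher in *Yap* mutant lungs. All 3 other MEF2 genes were higher by less than 2-fold, with a median log2 ratio of 0.14, *Mef2a* at 0.28 and *Mef2d* at 0.10. Of 11 genes of the LIM homeobox list, 6 were counted, 3 higher and 3 lower, with a median of -0.06, which turned to 0.77 over loci whose mean reached 1 FPKM. Of these, *Lhx2* and *Lhx3* were higher by at least 2-fold, with log2 ratios of 2.44 and 2.26, and *Lhx6* had -0.72. Of 9 bHLH genes related to the HAND factors, 8 had a locus, and of 8 loci counted 1 was higher and 7 were lower, with a median of -0.40. *Msc*, which acts with *Tcf21* in the muscle of the pharyngeal arches, went from 1.49 to 0.237 FPKM, a log2 ratio of -2.24. *Tcf21*, also a lung mesenchyme factor, had 2 loci with log2 ratios of -0.55 and -0.88, *Twist2* had -0.83, *Scx* -0.25, *Tcf15* -0.01 and *Twist1* 0.29.

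Other regulators of the heart differed in both directions. Of 37 genes on the list, which shares 11 with other lists, 33 were counted, 20 higher and 13 lower, with a median log2 ratio of 0.18, and 4 were higher and 4 lower by at least 2-fold. *Ankrd1*, which encodes a cardiac ankyrin repeat protein and is also a known YAP target, went from 1.53 to 19.0 FPKM, a log2 ratio of 3.55. *Shox2*, of the sinoatrial node, went from 1.05 to 7.07 FPKM, a log2 ratio of 2.65. At the other end, *Myocd*, a coactivator of smooth and heart muscle genes, went from 6.39 to 2.63 FPKM, a log2 ratio of -1.25, and *Irx3* had -1.18. The remaining loci past 2-fold were *Smyd1*, of striated muscle, with 2.61, *Tbx18*, and *Irx5* and *Irx2*, with -1.09 and -1.05, singled out after their values were seen.

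Pharyngeal regulators had a median log2 ratio of -0.20, or -0.08 with 1 FPKM added. Of 36 genes, 26 loci were counted, 11 higher and 15 lower, 3 and 4 of them by at least 2-fold. The 3 higher ones were the homeobox genes *Msx1*, with 1.65, and *Msx2*, with 1.05, and *Prdm1*, a zinc finger repressor named after its value was seen, with 1.18. Among the lower values were those of *Msc* and of *Eya1*, a transcriptional cofactor of the pharyngeal arches, with -1.07. *Pax1*, *Foxe1*, *Foxn1* and *Gcm2*, which mark pharyngeal pouches, thyroid, thymus and parathyroid, were at 0 in *Yap* mutant lungs, and all but *Pax1* were at 0 in the controls too. *Fgf8*, a well-known target downstream of TBX1, was too low to be counted. Its value was 0.0722 FPKM in the control lungs and 0.0396 FPKM in the *Yap* mutants. Other genes of the pharyngeal list were well above 0, among them *Hhex*, with 7.08 and 10.3 FPKM, and *Hoxa3*, with 16.5 and 20.5 FPKM, singled out after their values were seen.

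Of 16 genes listed as known targets of the factors, *Bop1* in error, 15 were counted and 14 were higher. By at least 2-fold 11 were higher, beside 3.99% of all loci counted. The median log2 ratio of the 15, *Bop1* included, was 1.34. *Nppa*, the atrial natriuretic peptide gene activated by NKX2-5, GATA4 and TBX20, went from 0.581 to 57.9 FPKM, a log2 ratio of 6.41. *Mybpc3*, a myosin-binding protein of heart muscle, went from 1.08 to 13.3 FPKM, a log2 ratio of 3.50. *Fgf10*, which acts in the second heart field and in lung budding, had a log2 ratio of 1.34. The 1 lower gene, *Bop1*, with -0.11, is a ribosome assembly gene that entered the list through a name it shares with *Smyd1* and is not a known target. Of the list, 10 genes also stand on other lists.

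Genes of heart muscle cells were higher as a group. All 28 genes of the cardiac muscle list were counted, all 28 were higher in *Yap* mutant lungs and 26 of them by at least 2-fold. Their log2 ratios ran from 0.74 to 6.41, with a median of 3.03, or 2.20 with 1 FPKM added. Summed over the list, the level was 172 FPKM in the control lungs and 1218 FPKM in the *Yap* mutants, 7.09 times as much. On the same scale without added FPKM, the value of *Nkx2-5* was 10.3 times and that of *Tbx20* 5.03 times that of the controls, that of *Nkx2-6* was 73.4 times, and that of *Gata4* was 1.85 times. After *Nppa*, *Pln*, which encodes phospholamban, was highest among genes with a mean of at least 1 FPKM, with a log2 ratio of 4.39. In the controls 1 gene, *Cox8b*, was at 0, and 18 of the 28 had at least 1 FPKM. The part of these cells in the values of *Nkx2-5*, *Tbx20*, *Nkx2-6* and *Gata4* was not tested.

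Skeletal muscle, endocardium, mesothelium and autonomic neurons are other cell types in which some of the factors are known, and the medians of these 4 lists lay between -0.37 and 0.31. Of 14 skeletal muscle genes 11 were counted, 5 higher and 6 lower, with a median log2 ratio of -0.32, or -0.15 with 1 FPKM added and -0.03 over loci whose mean reached 1 FPKM, and sums of 12.7 and 11.4 FPKM. *Tnnt3* and *Acta1* had 0.64 and 0.47, and *Myog* and *Mylpf* -0.80 and -0.54. All 7 endocardial genes were counted, *Gata5* among them, 3 higher and 4 lower, with a median of -0.15 and sums of 119.7 and 130.8 FPKM. *Npr3* had 0.65, *Plvap* -0.20 and *Cytl1* -2.82. Of 9 genes of mesothelium and epicardium, *Tbx18* among them, 6 were higher and 3 lower, with a median of 0.31, or 0.16 over loci whose mean reached 1 FPKM, and sums of 167 and 174 FPKM. *Lrrn4* had 0.48, *Krt19* -0.49 and *Podxl* -0.28. Of 16 genes of sympathetic and enteric neurons, *Hand2*, *Isl1* and *Gata3* among them, 6 were higher and 10 lower, with a median of -0.37, or -0.20 with 1 FPKM added, and sums of 46.9 and 41.9 FPKM. *Stmn2* and *Tubb3*, general neuronal genes, had -0.95 and -0.80. *Hand2* and *Isl1* were thus slightly higher in the mutants while most of the other neuronal genes on the list were lower.

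**Figure D4:**
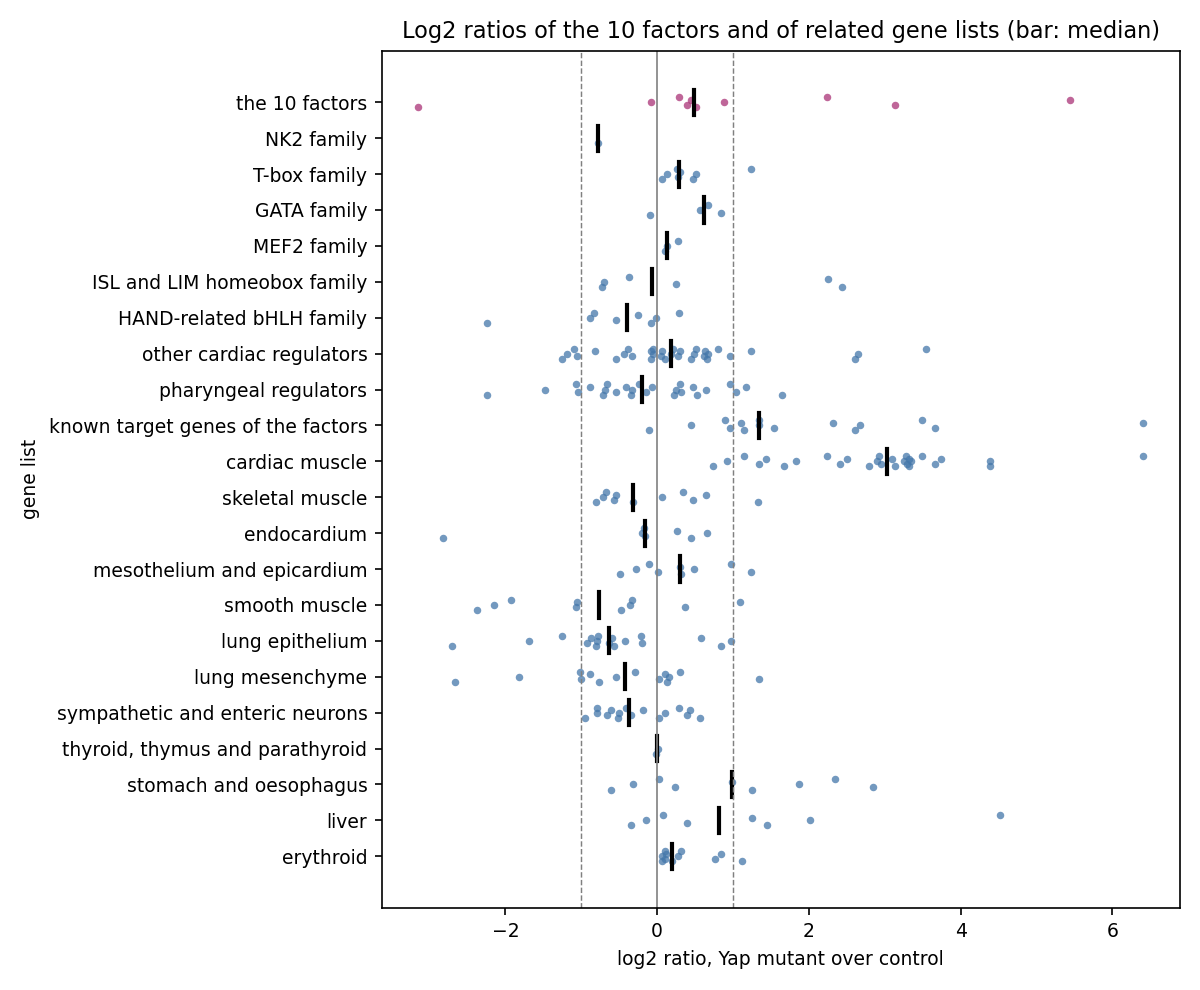
Log2 ratio of *Yap* mutant over control (horizontal axis) for each of the 10 factors and for each locus counted on the related gene lists (rows), with a bar at the median of each list and dashed lines at 2-fold. The cardiac muscle genes lie from 0.74 to 6.41 with a median of 3.03, and the 10 factors have a median of 0.48.

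Markers of the lung and of adjoining tissues give the setting of these values. All 17 lung epithelial genes had at least 1 FPKM in both genotypes, 14 were lower and 3 higher in the mutants, with a median log2 ratio of -0.63 and sums of 674 and 604 FPKM. Apart from *Shh*, the lowest was *Sox2*, with -1.69, and the highest were *Sftpc* and *Id2*, with 0.97 and 0.84. *Tbx1* was thus lower along with most genes of the epithelial list. Its log2 ratio of -3.15 was below that of all 17, of which *Shh* was lowest, with -2.71. The part of the epithelium in the value of *Tbx1* was not tested. Of 14 loci of lung mesenchyme, 8 were lower and 6 higher, with a median of -0.42 and sums of 753 and 663 FPKM, and *Ptch1*, the Hedgehog receptor and target gene, had -1.82. All 10 smooth muscle genes were counted, 8 lower and 2 higher, with a median of -0.76, or -0.47 over loci whose mean reached 1 FPKM, and sums of 408 and 291 FPKM. *Actg2* and *Myh11* were lowest, with -2.37 and -2.15, and *Des* and *Myl9* were higher, with 1.10 and 0.37. Of 11 liver genes 8 were counted, 6 higher and 2 lower, with a median of 0.82, or 0.17 with 1 FPKM added and 1.74 over loci whose mean reached 1 FPKM, and sums of 9.68 and 41.9 FPKM. *Ttr* and *Afp* had 4.52 and 2.02, and *Alb*, the defining gene of hepatocytes, had -0.15. Of 14 genes of stomach and oesophagus 9 were counted, 7 higher and 2 lower, with a median of 0.98, or 0.23 with 1 FPKM added and 0.03 over loci whose mean reached 1 FPKM, and sums of 6.88 and 9.16 FPKM. *Krt14* had 0.98, *Nkx6-1* 0.03 and *Barx1* -0.32. Of 10 genes of thyroid, thymus and parathyroid 2 were counted, 1 higher and 1 lower, with a median of 0.00 and sums of 0.560 and 0.580 FPKM. All 11 erythroid loci were higher, 1 by at least 2-fold, with a median of 0.19, or 0.12 over loci whose mean reached 1 FPKM, and sums of 5826 and 6266 FPKM. The locus of *Hba-a1* and *Hba-a2* that differed most had 0.32.

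The targeted gene and the sex-linked genes were read from the same table. *Yap1*, on chromosome 9 from 7932001 to 8004596, had 76.1 FPKM in the control lungs and 65.6 FPKM in the *Yap* mutants, a log2 ratio of -0.21, over a whole locus that includes the undeleted mesenchyme. Levels of *Ddx3y*, *Eif2s3y*, *Kdm5d* and *Uty*, all Y-linked, did not exceed 0.0163 FPKM in the control lungs, and reached 10.2, 16.5, 4.61 and 5.11 FPKM in the *Yap* mutants, and *Xist* had 97.0 and 50.4 FPKM. Y-linked RNA was thus nearly absent from the control value and present in that of the mutants. Embryo sex and genotype therefore cannot be told apart here. None of the 10 factors lies on a sex chromosome, which does not show whether their values differ with sex. The part of the sex of the embryos in the values of the factors was not tested.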

How the data were processed

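RNA-Seq of whole lungs at 12.5 *dpc* was used, with 3 control and 3 *Yap* mutant libraries grouped by their labels. Per the labels, TopHat, Cuffdiff and mm10 were used, without versions, and the paper names the Maverix platform. The authors deposited 1 FPKM value per locus and genotype, summarised over libraries, and the unit was inferred from the Cuffdiff layout. Pooling hides the spread, and depth per library is unknown. The authors' fold changes and p-values, and a second deposited table of loci selected on them, were not used. For each locus the log2 ratio was computed after adding 0.1 FPKM, with a mean of at least 0.1 FPKM for counting. No test was made. The arithmetic was checked on real control values with known fold changes and no noise put in. Their recovery was fixed by construction and checks only the formula. Locus starts count from 0 (9306 loci start 1 below RefSeq, 617 at it), so 1 was added. All 10 factors overlapped their GENCODE M21 genes.

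The 10 factors and the 22 lists beside them were chosen with earlier results of these data known. Named were the factors, up to 2 highest and 2 lowest genes per list with a mean of at least 1 FPKM, family members with at least 1 FPKM, the nearest loci on each side, the 3 loci most like *Nkx2-6* and *Tbx1*, *Yap1* and sex-linked genes. Genes outside this rule were named after their values were seen, and a few genes the rule names are not reported here. Alternatives were a pseudocount of 1 or 0.01 FPKM, a fold of 1.5, other filters, centring and scaling. Python 3.11.15, numpy 2.4.6, pandas 2.3.3 and matplotlib 3.10.9 were used.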

Additional observations from a re-analysis of the deposited data

How the results depend on the processing

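The counts of factors past 2-fold, 3 higher and 1 lower, stayed within 1.5 times under a pseudocount of 1 or 0.01 FPKM, a fold of 1.5, centring on all loci, and scaling each genotype to a sum of 1000000, and each factor kept its direction and its side of the 2-fold mark in all 40 values recomputed under these pseudocounts, centring and scaling. The median log2 ratio of the 10 was 0.48 and became 0.45 with a pseudocount of 1 FPKM, 0.53 with scaling and 0.51 over factors whose mean reached 1 FPKM. The share of all loci past 2-fold in either direction was 6.16%, and 3.44% among loci whose mean reached 1 FPKM. Of 22 list medians 11 were above 0, and 1, that of the LIM homeobox list, changed sign, to 0.77 with a mean of at least 1 FPKM. With a pseudocount of 1 FPKM, the median of the stomach and oesophagus list went from 0.98 to 0.23, of the liver list from 0.82 to 0.17, of the skeletal muscle list from -0.32 to -0.15 and of the neuronal list from -0.37 to -0.20. Over loci whose mean reached 1 FPKM these became 0.03, 1.74, -0.03 and -0.50, and the medians of the smooth muscle, mesothelial and erythroid lists became -0.47, 0.16 and 0.12. The median of the cardiac muscle list went from 3.03 to 2.20 with a pseudocount of 1 FPKM, and to 3.10 over loci whose mean reached 1 FPKM. That filter uses fewer genes by construction. No paired analysis was possible because the table holds 1 value per genotype, and for the same reason no replicate could be left out.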

Other observations

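Genes of the heart chambers, picked after their values were seen, were not equally high. Of the genes named here, *Irx4*, *Hcn4* and *Bmp10* are not on the cardiac muscle list. The atrial *Myl7* had 39.3 FPKM in the control lungs and 305.9 FPKM in the *Yap* mutants, and *Myl4*, of the atria in the adult and of both chambers in the embryo, had 21.3 and 210.3 FPKM. *Myh6* had 4.39 and 60.2 FPKM. The ventricular *Myl2* stayed low, at 0.291 and 0.763 FPKM, *Myl3* had 0.572 and 1.02 FPKM, *Myh7* had 0.316 and 3.06 FPKM, and *Irx4*, a ventricular homeobox gene, had 0.0334 and 0.0576 FPKM. The ratios did not follow these levels. Without added FPKM, *Myh7* had 9.68 times its control value, *Myl2* 2.62 times and *Myl3* 1.79 times. *Irx4* had 1.73 times, from values too low to be counted. For *Myl7*, *Myl4* and *Myh6* it was 7.77, 9.89 and 13.7 times. *Hcn4*, the pacemaker channel gene, had 1.40 and 4.27 FPKM. *Bmp10*, of heart trabeculae and the right atrium, had 0.0292 and 0.542 FPKM.

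Single endoderm factors, also picked after their values were seen, went different ways. *Cdx2*, of the intestine, was listed at 0 in control and at 0.410 FPKM in *Yap* mutant lungs, and *Pdx1*, of pancreas and duodenum, had 0.0266 and 0.809 FPKM, while *Nkx6-1* had 2.88 and 2.94 FPKM and *Nkx2-2* and *Foxe1* were at 0 in both genotypes.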
